A study of Mus musculus with 16 samples.

Results

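Aggregated low-density lipoprotein (agLDL), a clumped form of LDL that macrophages take up in bulk, was compared with no lipoprotein in macrophages carrying the Ndst1-deficient label. The comparison rests on 8 of the 16 arrays of the series: 4 with 50 µg/ml agLDL and 4 untreated, chosen by the genotype and treatment in the sample labels. Each agLDL array was set against the untreated array with the same number in its title. The number names a mouse and a duplicate (1.1 and 1.2 for mouse 1, 2.1 and 2.2 for mouse 2), so 4 pairs come from 2 mice. In the labels the deficient macrophages are Ndst1f/fLysMCre+ and the wild-type ones Ndst1f/fLysMCre-, so both carry the floxed allele, and all mice were 12 week old C57BL6. Marrow cells were grown with 20 ng/ml recombinant macrophage colony stimulating factor, and both arms spent 24 hours in medium with 10% lipoprotein-deficient serum. LysMCre expresses Cre from the Lyz2 locus in myeloid cells, so the remaining uncut share of Ndst1 depends on how complete that recombination was. No probe of Ndst1 itself was analysed here, and the deletion was not checked on these arrays.

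Ndst1 encodes an N-deacetylase and N-sulfotransferase that sulfates the growing heparan sulfate chain, a sugar polymer carried by proteoglycans of the cell surface and known to bind lipoproteins. Macrophages that take in LDL cleave its cholesteryl esters in late endosomes and lysosomes, pass the free cholesterol to the endoplasmic reticulum and re-esterify it for storage in lipid droplets, which gives the foam cells of atherosclerotic lesions. Excess sterol is known to lower the SREBP2 programme of cholesterol synthesis and, through oxysterols, to turn on LXR targets that export cholesterol.

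All values below are log2 signals after background correction and quantile normalization, and a difference is agLDL minus untreated on that scale. Per array, 9241 to 10115 probes were detected, and the small number of arrays limits the precision. All 8 arrays lay on 1 slide, untreated ones at A to D and agLDL ones at E to H, so position and treatment cannot be told apart. The wild-type label lay on another slide with the same layout of treatments, so slide and genotype cannot be told apart either. The untreated array 1.2 stood apart. It differed from the other arrays numbered 1.2 by a root mean square of 0.394 to 0.451 over all genes, against 0.231 to 0.313 for the other 21 couples of same-numbered arrays, and it detected the most probes. Of 12 macrophage markers with a probe, 12 were detected, and their summed signal ranged from 17.15 to 17.33 untreated and from 17.18 to 17.32 with agLDL (log2). Of 11 T and NK cell markers none was detected, while 12 of 14 neutrophil and granulocyte precursor markers were, with summed signals of 13.95 to 14.73 untreated and 14.21 to 14.58 with agLDL. The Lyz2 probe below saturation, ILMN_2939681, read 12.44 ± 0.84 untreated and 12.52 ± 0.69 with agLDL (SD, n = 4), against 12.51 ± 0.77 and 12.55 ± 0.71 under the wild-type label. A dimmer Lyz2 probe, ILMN_2766780, was higher with agLDL by 0.57 ± 0.17 (limma unadjusted p = 0.0071), and the third probe was near saturation.

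No gene passed the test for agLDL. limma with each pair as a block called 0 of 7647 genes (percent called 0) at an adjusted p under 0.05, and the lowest adjusted p was 0.188. At an unadjusted p under 0.05 there were 707 genes (9.25%), of which 412 were higher with agLDL (5.39%) and 295 lower (3.86%), where 382 would be reached by chance. In all 4 pairs 608 genes were higher (7.95%) and 656 lower (8.58%). For 87 genes every agLDL array lay above every untreated array (1.14%), and for 48 every one lay below (0.628%). The typical difference was small, with a median of -0.01 over all genes and a median standard error of 0.11, and 40 genes differed by more than 1.5-fold, 31 of them higher and 9 lower. The 4 pairs come from 2 mice, so these p-values measure a spread that is partly technical.

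The pairs did not weigh equally. Over all genes the root mean square difference was 0.263 in pair 1.1, 0.435 in pair 1.2, 0.251 in pair 2.1 and 0.236 in pair 2.2. Differences above 1 on the log2 scale were counted for 198 genes in pair 1.2 and for 26, 28 and 20 in the others. Across genes, the differences of pairs 1.1 and 1.2 correlated at 0.30, and those of the other couples of pairs lay between -0.01 and 0.11. These correlations run across genes, which do not stand for replicates, and are a description. Without pair 1.2 the count at an unadjusted p under 0.05 was 411 genes in place of 707. Values without that pair are given below for many, not all, genes that pass the threshold only with it or move by over 1.5 times. A gene with no such value may still depend on that pair. The counts in gene lists below stand against 5.39% of all genes higher and 3.86% lower, or about 1 gene each in a list of 20.

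**Figure D1:**
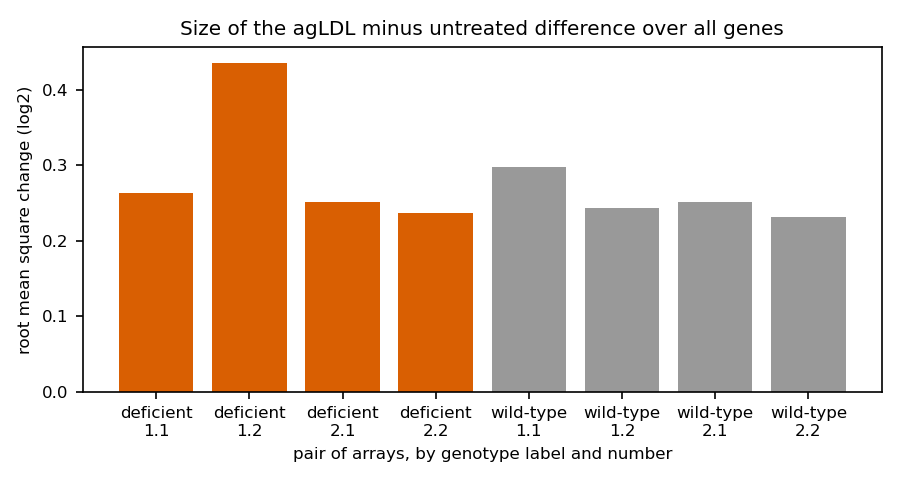
Root mean square of the agLDL minus untreated difference over 7647 genes (log2, bars from 0) for each pair of arrays, with the Ndst1-deficient label in orange and the wild-type label in grey. Pair 1.2 of the deficient label reaches 0.435, and the other 7 pairs lie between 0.231 and 0.298.

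Lipid droplet genes come first, because droplets are where the loaded sterol is stored. Plin2, the coat protein used as a marker of foam cells, read 10.69, 11.08, 10.45 and 11.77 on the untreated arrays 1.1, 1.2, 2.1 and 2.2, and 10.97, 12.26, 10.78 and 11.87 with agLDL. The agLDL array was the higher of each pair, while the 2 groups overlapped, since the numbers differ more than the treatments do. The difference was 0.47 ± 0.18 (log2, SE; 4 pairs), or 1.39-fold, with a 95% interval of 0.08 to 0.86 and a limma adjusted p of 0.489. Pair 1.2 alone differed by 1.18 and the other 3 by 0.10 to 0.33, and without it the difference was 0.23 (limma unadjusted p = 0.14). Under the wild-type label Plin2 was higher in 3 of 4 pairs, by 0.35 ± 0.18, and the difference between the labels was 0.12, with an interval of -0.44 to 0.67. The RefSeq promoter of Plin2 (GRCm38.p6, chr4:86670050-86670309, minus strand, 250 bases before to 10 after the start) is shown because Plin2 is the accepted readout of loading. Capitals mark 2 motifs: AGGTCA, the half-site of nuclear receptors such as the PPARs and LXRs, found on the other strand as TGACCT at -218 from the start, and the E-box CACGTG at -4, the core of the sites that TFE3 and TFEB are known to bind.
Plin2: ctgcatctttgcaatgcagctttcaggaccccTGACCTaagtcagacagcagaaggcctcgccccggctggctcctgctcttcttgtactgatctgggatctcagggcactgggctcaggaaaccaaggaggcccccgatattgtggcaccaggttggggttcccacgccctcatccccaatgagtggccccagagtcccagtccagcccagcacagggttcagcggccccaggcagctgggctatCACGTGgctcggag
On both strands, 14.5% of 32851 promoter windows of this length hold the half-site and 6.3% hold the E-box, and the 2 motifs do not overlap here. These letters are not in the same window of Stard3 or Ssbp1, the genes described next.

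Plin3, a perilipin that moves from the cytosol onto new droplets, read 8.67, 8.51, 8.94 and 8.80 untreated and 8.99, 9.30, 9.06 and 9.05 with agLDL. All agLDL arrays lay above all untreated arrays. The difference was 0.37 ± 0.12 (limma adjusted p = 0.436), and 0.23 without pair 1.2. Acsl3, an acyl-CoA synthetase of the endoplasmic reticulum and of nascent droplets, was lower with agLDL in all 4 pairs, by -0.25 ± 0.09 (limma adjusted p = 0.474). Of the 16 droplet and ester storage genes tested, 2 were higher and 1 lower at an unadjusted p under 0.05, 0 passed the adjusted test, and the median difference was 0.00 against -0.01 over all genes. Without pair 1.2, 1 was higher and 2 were lower. Nceh1, which hydrolyses cholesteryl esters, differed by 0.04 ± 0.08.

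**Figure D2:**
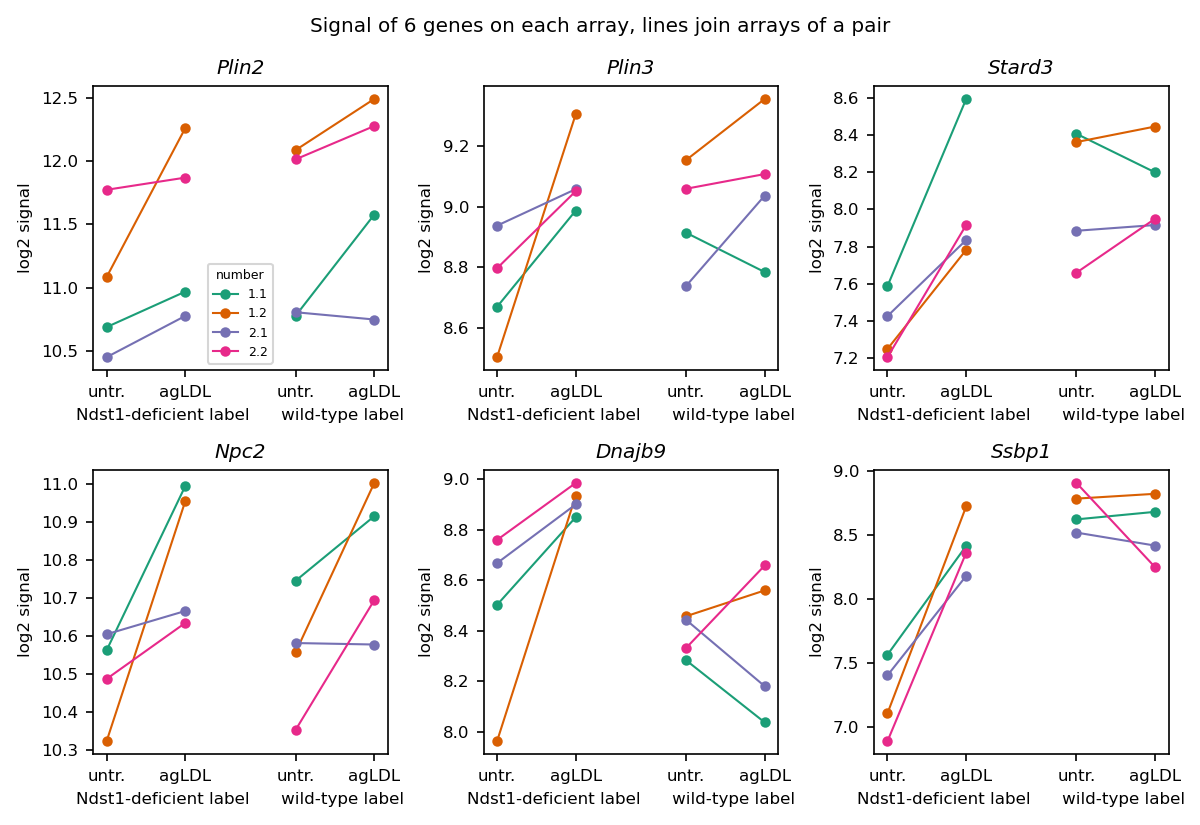
Log2 signal of 6 genes on each of the 16 arrays, untreated and with agLDL, under the Ndst1-deficient label (left in each panel) and the wild-type label (right), with lines joining the arrays of a pair and a colour per number. Under the deficient label all 4 lines go up for each of the 6 genes, and for Plin2 and Dnajb9 the pair 1.2 goes up by far the most.

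The list of sterol release and transfer from lysosomes includes Stard3, which had the smallest p of the lipid lists. Stard3, a sterol transfer protein of the late endosomal membrane, read 7.59, 7.25, 7.42 and 7.20 untreated and 8.60, 7.78, 7.84 and 7.92 with agLDL. The groups did not overlap, and the agLDL array 1.1 was well above the rest. Stard3 was higher by 0.67 ± 0.11 (1.59-fold, interval 0.42 to 0.92, limma adjusted p = 0.215), and by 0.71 without pair 1.2. The untreated wild-type arrays read 8.41, 8.36, 7.89 and 7.66, each above the untreated deficient array of its number. Npc2, the soluble lysosomal carrier that hands cholesterol to the membrane, read 10.56, 10.32, 10.60 and 10.49 untreated and 11.00, 10.96, 10.67 and 10.63 with agLDL. Its groups did not overlap either, but the pairs of mouse 1 differed by 0.43 and 0.63 and those of mouse 2 by 0.06 and 0.15. Npc2 was higher by 0.32 ± 0.11 (limma adjusted p = 0.466), and by 0.21 without pair 1.2 (unadjusted p = 0.088).

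Tfe3 and Tfeb are related transcription factors of the lysosomal programme. Tfe3 was higher by 0.38 ± 0.11 (limma adjusted p = 0.404) and in 3 of 4 pairs, while pair 2.1 went from 8.90 untreated to 8.83 with agLDL. Tfeb was lower by -0.35 (limma unadjusted p = 0.04) and was detected on 4 untreated arrays and on 1 agLDL array, and without pair 1.2 it differed by -0.21. Of the 18 genes of sterol release and transfer, 3 were higher (Stard3, Tfe3 and Npc2) and 1 lower (Tfeb) at an unadjusted p under 0.05, and the median difference was -0.03. Without pair 1.2 these counts were 2 and 0, with Npc2 and Tfeb lost. Tfe3 (0.36) and Tfeb (-0.21) kept opposite signs there, but Tfeb was past the threshold only with that pair. Of 31 lysosomal hydrolases and proton pump subunits 1 was higher, the protease gene Ctsd, by 0.27 ± 0.11 (0.24 without pair 1.2, unadjusted p = 0.092), and 0 were lower. The Ctsd probe was dim, with means of 6.11 untreated and 6.38 with agLDL, and was detected on 3 untreated and 4 agLDL arrays. Lipa, the acid lipase that cleaves LDL cholesteryl esters, differed by -0.14 ± 0.18, a mixture of signs among pairs, from 11.45, 12.06, 11.97 and 12.19 to 11.87, 11.45, 11.64 and 12.15. Without pair 1.2 Lipa differed by 0.02.

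Genes known to answer to sterol excess gave few differences. Of 13 LXR targets and efflux genes, 0 were higher and 0 lower at an unadjusted p under 0.05, with a median difference of -0.00. Without pair 1.2, 1 was higher, Mylip, which marks the LDL receptor for degradation. Abcg1, which exports cholesterol to HDL, read 8.85, 9.64, 9.41 and 10.26 untreated and 8.95, 9.87, 9.48 and 10.24 with agLDL, a difference of 0.10 ± 0.17. Nr1h3, the gene of LXR alpha, differed by -0.12 ± 0.09, and Apoe, a secreted carrier of cholesterol, by 0.14 ± 0.12. The 95% intervals of all 3 include 0, and without pair 1.2 they differed by 0.05, -0.07 and 0.04. Of 17 genes of cholesterol synthesis and SREBP2, 2 were higher, the sterol oxidase Msmo1 by 0.43 ± 0.17 and the sterol carrier Stard4 by 0.30 ± 0.13, and 0 were lower. Neither passed the adjusted test (limma adjusted p = 0.518 and 0.538), and without pair 1.2 they differed by 0.22 and 0.18, at unadjusted p of 0.18 and 0.20. Insig1, a sterol-sensing brake on SREBP processing, differed by -0.20 ± 0.11 (limma adjusted p = 0.574), and by -0.08 without pair 1.2. Fatty acid synthesis had 0 of 7 members past the unadjusted threshold in either direction.

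Of the 15 receptors and lipoprotein-handling genes tested, 11 were detected on all 8 arrays. Marco, a class A scavenger receptor, read 5.40, 5.06, 5.62 and 5.08 untreated, where it was not well above background on any array. With agLDL it read 6.06, 5.90, 5.95 and 5.82 and was detected on 3 arrays. The groups did not overlap, the fitted difference was 0.64 ± 0.16 (limma adjusted p = 0.404), and against the detection floor Marco was at least 1.04-fold higher with agLDL. Lrp5, an LDL receptor related protein that serves as a Wnt coreceptor, was detected on 1 untreated and on 4 agLDL arrays and was higher by 0.67 ± 0.19 (limma adjusted p = 0.404). Cd36, a receptor of oxidized LDL, was detected on 2 arrays of each group and differed by -0.17 ± 0.17, and by -0.33 without pair 1.2. Lpl, the secreted lipase, read between 15.10 and 15.21 on all 8 arrays, near the top of the scale. At an unadjusted p under 0.05, 2 of the 15 were higher, Marco and Lrp5, both dim, and 0 lower, while the median difference of the 15 was -0.09. Marco passed the detection filter only with its agLDL arrays of this label, so its place in that count follows partly from the filter.

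Oxidation of fatty acids and the genes of lipid-laden tissue macrophages gave mixed directions. Eci2, an enoyl-CoA isomerase of unsaturated fatty acid oxidation, was higher by 0.38 ± 0.12, Hadhb, a subunit of the mitochondrial trifunctional protein, was higher by 0.27 ± 0.12, and Cpt2, which completes the carnitine shuttle, was lower by -0.27 ± 0.11 (limma adjusted p = 0.436, 0.540 and 0.530). These were the 3 of 20 members past the unadjusted threshold, and without pair 1.2 the count was 0. They then differed by 0.27, 0.15 and -0.11. Gpnmb, a glycoprotein of lipid-laden macrophages, read 13.72, 13.63, 13.91 and 13.92 untreated and 14.00, 14.04, 13.92 and 13.99 with agLDL. Its groups did not overlap on the representative probe, although the nearest arrays both read 13.92 (0.20 ± 0.10), while its other 3 probes differed by 0.01, 0.05 and 0.24. Without pair 1.2 it differed by 0.12. In the list of lipid-associated macrophage genes, 0 of 13 were higher and 1 was lower, the surface peptidase Anpep, by -0.21 ± 0.08. Without pair 1.2 Anpep differed by -0.14 (unadjusted p = 0.105), 0 were lower, and 1 was higher, Vat1, by 0.26.

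The heparan sulfate pathway itself, in which the deleted gene acts, had 1 member higher and 1 lower among 17 tested. Naglu, a lysosomal glucosaminidase that degrades the chain, was higher by 0.52 ± 0.22 (limma adjusted p = 0.532), with pairs 1.1 and 1.2 going from 7.29 and 6.55 to 8.10 and 7.98 and pairs 2.1 and 2.2 going from 7.69 and 7.80 to 7.65 and 7.68. The difference is that of mouse 1, and without pair 1.2 it was 0.22 (unadjusted p = 0.24). B3gat3, which completes the linker that anchors the chain to its protein, was lower by -0.34 ± 0.13 (limma adjusted p = 0.499), with pair 1.2 at -0.83 and a difference of -0.18 without it (unadjusted p = 0.135). Without pair 1.2 the list had 0 members past the threshold in either direction. Among 7 proteoglycan core proteins, Bgn, the secreted proteoglycan biglycan, was higher by 0.34 ± 0.15 and was detected on 2 arrays of each group. It read 7.69 and 7.32 untreated in mouse 1 and 5.82 and 4.85 in mouse 2. The gap went with the number under the wild-type label too. There the untreated arrays 1.1 and 1.2 read 8.03 and 7.71, and 2.1 and 2.2 read 5.66 and 5.10. Without pair 1.2 of the deficient label Bgn differed by 0.27 (unadjusted p = 0.157). The syndecan genes Sdc3 and Sdc4 differed by 0.12 ± 0.08 and -0.14 ± 0.08.

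**Figure D3:**
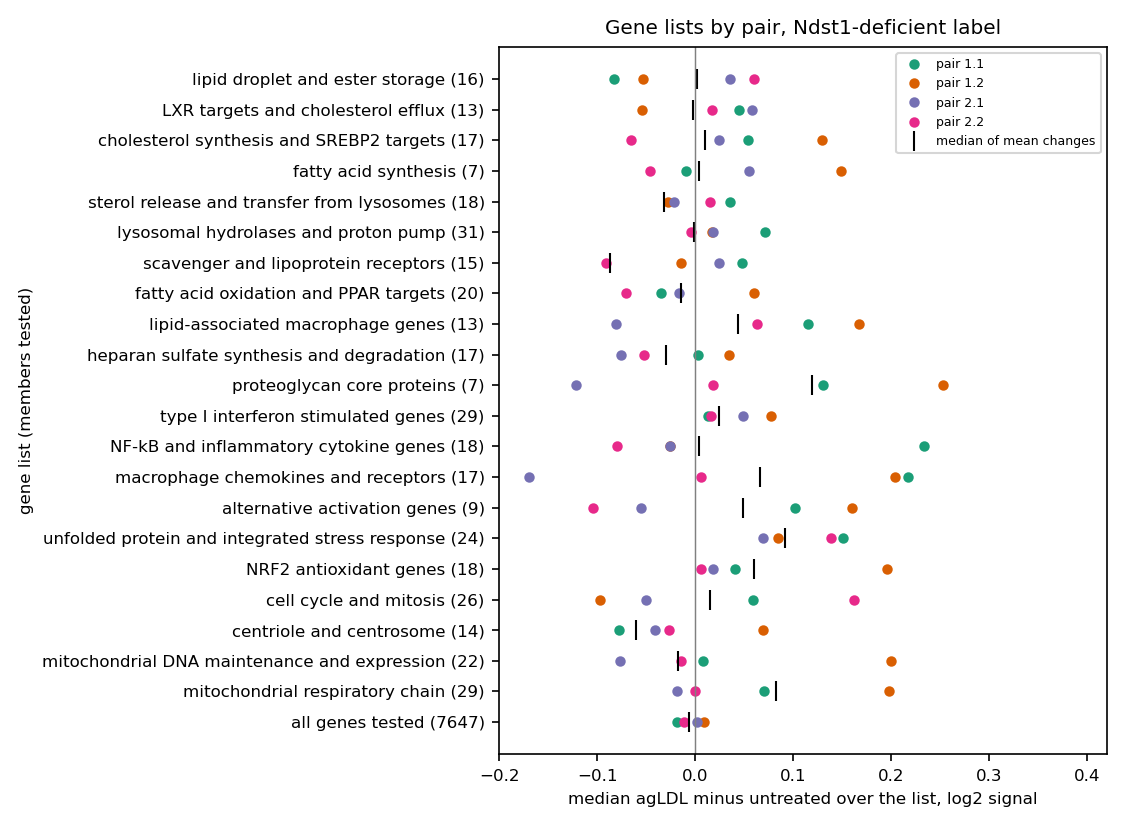
Median agLDL minus untreated difference (log2) over each of 21 gene lists and over all 7647 genes, as 1 point per pair and, as a black bar, the median of the mean differences. The lists of unfolded protein and integrated stress response, NRF2 and type I interferon genes have all 4 points above 0, and in the other 18 lists the points lie on both sides of 0.

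Of the 21 lists, that of protein folding in the endoplasmic reticulum and the stress response had most members higher in every pair. Of 24 genes of the unfolded protein and integrated stress response, 6 were higher and 1 lower in all 4 pairs, against 7.95% and 8.58% of all genes, and the median difference was 0.09 (0.11 without pair 1.2). At an unadjusted p under 0.05, 4 were higher and 2 lower, and without pair 1.2 these counts were 2 (Pdia3 and Sel1l) and 0. Dnajb9, a co-chaperone of BiP, read 8.50, 7.96, 8.67 and 8.76 untreated and 8.85, 8.93, 8.90 and 8.98 with agLDL. The groups did not overlap, the lowest untreated array was 1.2, and the difference was 0.44 ± 0.14 (limma adjusted p = 0.436), or 0.27 without pair 1.2 (unadjusted p = 0.055). Pdia3, a disulfide isomerase of glycoprotein folding, was higher in each pair, by 0.25 ± 0.09, from 12.79, 12.98, 13.01 and 13.22 to 13.11, 13.24, 13.20 and 13.44.

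Sel1l, an adaptor of the degradation of misfolded proteins, depended on the probe. The representative probe ILMN_1244431 was higher by 0.48 ± 0.11 (limma unadjusted p = 0.001), with no overlap of the groups, whereas the probe ILMN_3060512 was lower by -0.39 ± 0.12 (limma unadjusted p = 0.0069). No direction is given for the gene. The list counts above include Sel1l as higher by its representative probe, in every pair and at the unadjusted threshold, with and without pair 1.2. The other members past the unadjusted threshold were the stress factor Atf5, higher by 0.36, and Atf3 and Sesn2, both induced by the integrated stress response, lower by -0.34 and -0.32. Without pair 1.2 they differed by 0.19, -0.15 and -0.29, and none of them was past the threshold. Of 18 NRF2 antioxidant genes, 2 were higher, Tkt of the pentose phosphate pathway by 0.44 ± 0.17 and the peroxiredoxin Prdx1 by 0.28 ± 0.11, and 0 were lower. Tkt differed by 0.18 and Prdx1 by 0.16 without pair 1.2, and neither was past the threshold.

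Of 18 genes of NF-kB and inflammatory cytokines, 3 were higher and 0 lower at an unadjusted p under 0.05, with a median of 0.00. Without pair 1.2 the same 3 genes were higher and 1 was lower, the inhibitor gene Nfkbib. Nfkbiz, a nuclear IkB protein that tunes secondary response genes, read 9.98, 8.92, 9.97 and 9.05 untreated and 10.39, 9.24, 10.37 and 9.24 with agLDL. The agLDL array was higher in every pair, by 0.19 to 0.42, and the groups overlapped, since the numbers differ in level (0.33 ± 0.08, limma adjusted p = 0.404). Sod2, the mitochondrial superoxide dismutase and an NF-kB target, was higher by 0.48 ± 0.12, with pair 2.1 at 11.12 and 11.10. Il1a, a proinflammatory cytokine, was higher by 0.49 ± 0.19 and went from 5.55 to 6.97 in pair 1.1, from 5.22 to 5.71 in pair 2.1 and by less than 0.1 in the others.

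Among 17 chemokines and receptors, the neutrophil attractant Cxcl2 was higher by 0.31 ± 0.13 and the monocyte attractant Ccl12 by 0.43 ± 0.18, and 0 were lower. Ccl12 went from 8.27 and 9.41 to 8.96 and 10.38 in the pairs of mouse 1 and from 6.80 and 6.49 to 6.85 and 6.48 in those of mouse 2, and differed by 0.25 without pair 1.2 (unadjusted p = 0.22). Of 29 type I interferon stimulated genes, 4 were higher (Oasl2, Bst2, Irf9 and Stat2) and 1 lower (Dhx58), and without pair 1.2 the count was 1, Oasl2. Bst2, which tethers budding virions, was higher by 0.39 ± 0.15, and by 0.29 without pair 1.2 (unadjusted p = 0.11). Oasl2, an oligoadenylate synthetase like protein, was higher by 0.27 on its representative probe and differed by -0.13 on the other, and Irf9 differed by 0.22 and -0.00 on its 2 probes. Alternative activation genes had 0 of 9 members past the threshold, and the mannose receptor gene Mrc1 differed by -0.10 ± 0.09.

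The largest difference of the comparison belonged to Ssbp1, which encodes the single-stranded DNA binding protein of the mitochondrial replisome. It read 7.57, 7.11, 7.41 and 6.89 on the untreated arrays and 8.42, 8.72, 8.18 and 8.36 with agLDL. All agLDL arrays lay above all untreated arrays, from 8.18 upwards against 7.57 at most. The difference was 1.18 ± 0.16, or 2.26-fold, with an interval of 0.82 to 1.54. With each pair as a block the limma adjusted p was 0.188. With the number as a block shared between both genotype labels it was 0.021, and Ssbp1 was the 1 gene of 7647 called (0.0131%). Under the wild-type label Ssbp1 read 8.62, 8.78, 8.52 and 8.91 untreated and 8.68, 8.82, 8.42 and 8.25 with agLDL, so the untreated deficient arrays were the low ones of the 4 groups and the agLDL ones lay close to the wild-type arrays.

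The other genes of mitochondrial DNA maintenance and expression did not go with Ssbp1. Of 22 tested, it was the 1 higher at an unadjusted p under 0.05, while Elac2, which trims mitochondrial tRNA ends, was lower by -0.36 ± 0.13 and Rexo2, an oligoribonuclease, by -0.25 ± 0.09. Without pair 1.2 Elac2 differed by -0.23 (unadjusted p = 0.088) and was no longer past the threshold, while Rexo2 was. The counts were then 1 higher, Ssbp1, and 2 lower, Rexo2 and Tfb1m. The list median was -0.02. Among 29 subunits and factors of the respiratory chain, 3 of complex I were higher (Ndufb5 by 0.38 ± 0.12, Ndufa1 by 0.37 ± 0.13, and Ndufb3) and 1 was lower (Ndufa10, by -0.18 ± 0.08). Without pair 1.2 the count was 0 in both directions, and the list median went from 0.08 to -0.01. Ndufb5 then differed by 0.21 and Ndufa1 by 0.20.

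Of 14 centriole genes 3 were higher and 1 lower at an unadjusted p under 0.05, against 5.39% and 3.86% of all genes, and the list median was -0.06. Ccp110, which caps centrioles, was higher by 0.50 ± 0.15 on its representative probe and by 0.21 on the other (limma unadjusted p = 0.22 there). Cep135, a scaffold of the cartwheel, read 4.91, 4.93, 4.90 and 5.01 untreated and 5.82, 5.65, 6.03 and 5.52 with agLDL. It was detected on 0 untreated and 2 agLDL arrays, so its fitted difference of 0.82 is that of signals near the background. Cep135 passed the detection filter only with these 2 arrays, so its place in the count follows partly from the filter. Cetn3 was the third and was no longer past the threshold without pair 1.2 (0.26 to 0.17), and Ninl, a centrosomal protein, was lower by -0.30 ± 0.12 and was detected on 1 array in all. Of 26 cell cycle genes 1 was higher, Nusap1 of the mitotic spindle, by 0.36 ± 0.15 (0.28 without pair 1.2, unadjusted p = 0.15), and 0 were lower.

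Outside the lists, the genes with the smallest p among those of 1 sign in all 4 pairs came from varied functions. Car9, a cell-surface carbonic anhydrase known for its induction by hypoxia, read 7.15, 6.80, 6.22 and 6.82 untreated and 7.48, 7.66, 7.08 and 7.62 with agLDL. Its groups overlapped by 1 array, the difference was 0.71 ± 0.11 (limma adjusted p = 0.188), and a second probe differed by 0.14. Cul4a, the scaffold of a ubiquitin ligase, read 9.57, 9.73, 9.35 and 9.45 untreated and 10.16, 10.28, 9.72 and 9.98 with agLDL. It differed by 0.51 ± 0.08 (limma adjusted p = 0.188), but 2 other probes differed by -0.08 and -0.19, so its direction rests on 1 probe. As with Ssbp1, the untreated deficient arrays were the low ones, since the wild-type arrays read 10.20, 10.37, 10.39 and 10.16 untreated.

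Of the other higher genes, Ap3d1, a subunit of the AP-3 adaptor that sorts cargo to lysosomes, read 10.28, 10.36, 10.29 and 10.04 untreated and 10.70, 10.80, 10.52 and 10.56 with agLDL, with no overlap (0.40 ± 0.08, limma adjusted p = 0.319). Cyb5a, cytochrome b5, which gives electrons to lipid desaturases, was higher by 0.43 ± 0.09 with no overlap, and Tmem19 by 0.42 ± 0.08, also with none. Tcp1, a subunit of the cytosolic chaperonin, was higher by 0.53 ± 0.11 on one probe and by 0.23 on the other. Golph3l, a Golgi protein, Il16, a cytokine precursor, and Tnni2, a troponin subunit, were higher by 0.56, 0.57 and 0.50.

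Among the lower genes of that set, Gpatch3, a G-patch protein, read 7.24, 8.02, 7.0 and 7.38 untreated and 6.93, 7.19, 6.51 and 6.57 with agLDL, lower in each pair with overlapping groups (-0.61 ± 0.10, limma adjusted p = 0.188). Hexim2, an inhibitor of the elongation kinase P-TEFb, read 6.49, 6.67, 6.38 and 6.17 untreated and 5.84, 5.90, 6.11 and 5.45 with agLDL, with no overlap (-0.60 ± 0.11, limma adjusted p = 0.319). Ppp2r1b, a scaffold of protein phosphatase 2A, went from 6.24, 6.90, 7.0 and 6.45 to 5.88, 6.13, 6.22 and 5.89, again with no overlap. Dnajc17, the kinase gene Dstyk, Mrtfa, a coactivator of serum response factor, and Wfs1, a membrane protein of the endoplasmic reticulum, were lower by -0.71, -0.59, -0.61 and -0.50. Nfx1, Pcnx, Bin3, Rassf7 and Leng1 differed by -0.43, -0.43, -0.40, -0.38 and -0.33.

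**Figure D4:**
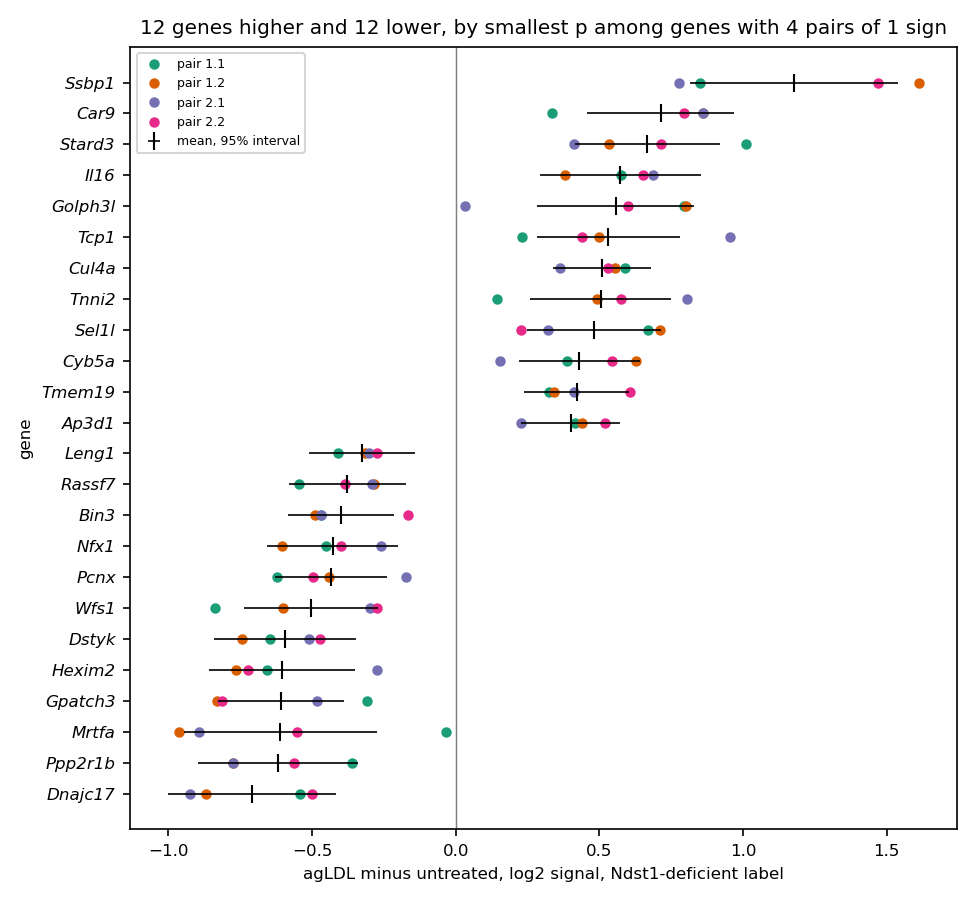
Difference agLDL minus untreated (log2) for 12 higher and 12 lower genes, chosen by the smallest p among genes with 4 pairs of 1 sign, with 1 point per pair and the mean with its 95% interval. Ssbp1, at 1.18, lies apart from the other higher genes, which lie between 0.40 and 0.71, and the lower genes lie between -0.71 and -0.33.

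Genes detected in 1 group and on no array of the other give a bound only. Of 7647 genes, 35 were detected on at least 2 agLDL arrays and on no untreated array, and 24 the other way round. Some of them passed the detection filter only through the group where they were detected. Besides Marco, those with the smallest p on the higher side were Syt9, a synaptotagmin, at least 1.18-fold higher, Tbc1d8 at least 1.01-fold and the unnamed probe ILMN_2737463 at least 1.29-fold. Cep135, described above, is of this kind too. Ninl was detected on 1 untreated and no agLDL array, so it is not in these counts. No bound above 1-fold could be given for Cep135 or Ninl. On the lower side those with the smallest p were Setd7, a lysine methyltransferase, at least 1.12-fold lower with agLDL, Olfr166 at least 1.03-fold, and Fam118a and Spidr each at least 1.01-fold. The lowest limma adjusted p of those named was 0.404, and all of them lie near the detection floor. Syt9, Tbc1d8, Olfr166 and Fam118a, like Marco and Cep135, passed the filter only through the group where they were detected. Their place among these genes follows partly from the filter.

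Markers of other cell types were set beside these genes. Pf4, a platelet factor that macrophages also express, was higher by 0.54 (limma unadjusted p = 0.026), while 4 of the 6 megakaryocyte markers with a probe were not detected. Of 12 neutrophil and granulocyte precursor markers tested, 0 were higher and 2 lower at an unadjusted p under 0.05. These were Cebpe and Prtn3, by -0.42 and -0.44 (limma unadjusted p = 0.021 and 0.047). The median difference of the 12 was -0.04, and the summed signal of that list overlapped between the groups. Of 12 macrophage markers, 2 were higher, Tyrobp by 0.39 and Aif1 by 0.30, and 1 lower, Itgam by -0.40, at an unadjusted p under 0.05. Without pair 1.2 they differed by 0.19, 0.21 and -0.21, and Pf4 by 0.29. In bulk RNA, fewer cells of a type and less RNA per cell cannot be told apart, and the part of these markers in the results was not tested.

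The same contrast was fitted under the wild-type label. There 215 genes had an unadjusted p under 0.05 (2.81%), and the lowest limma adjusted p was 0.999. The difference between the labels in their response to agLDL had 279 genes at an unadjusted p under 0.05 (3.65%) and none at an adjusted p under 0.05, with a lowest value of 0.825, where 382 would be reached by chance at the unadjusted threshold. Of the 707 genes of the deficient label, 37 were also under 0.05 in the same direction under the wild-type label and 6 in the opposite direction. The direction of the mean difference was shared by 68.3% of the 707 genes and by 59.2% of all genes. Untreated and agLDL arrays had the same positions on both slides, so in a direction shared by the labels agLDL and position cannot be told apart. In all 8 pairs 63 genes were higher and 68 lower.

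Among the named genes, those with like values under both labels included Plin2, Npc2 (0.32 and 0.24), Tnni2 (0.50 and 0.43), Elac2 (-0.36 and -0.30) and Bgn (0.34 and 0.32), given as deficient then wild-type. Their intervals for the difference between the labels include 0. Ssbp1 differed by 1.18 under the deficient and -0.17 under the wild-type label, a difference of 1.34 with an interval of 0.83 to 1.85 (limma adjusted p = 0.825). Stard3 differed by 0.67 and 0.05, a difference of 0.62 with an interval of 0.26 to 0.97 (limma adjusted p = 0.942). Car9, at 0.71 and -0.16, and Cul4a, at 0.51 and -0.07, gave the same picture. These genes were chosen for their size under the deficient label, so the gap to the wild-type label is a description.

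**Figure D5:**
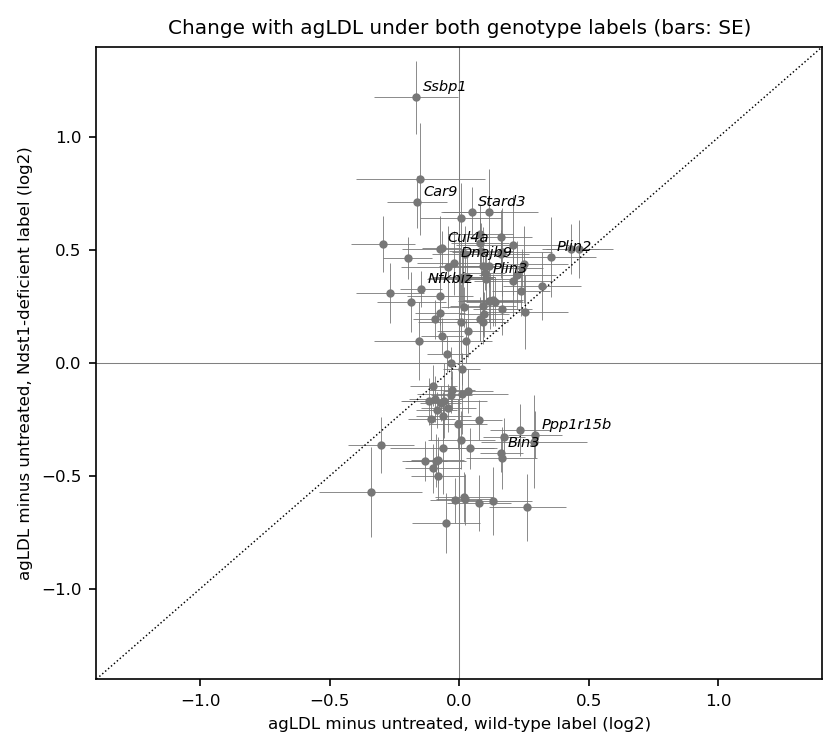
Difference agLDL minus untreated (log2, bars: SE) of the 100 named genes under the wild-type label (horizontal) and the Ndst1-deficient label (vertical), with a dotted line where both are equal. Most points are spread along the vertical axis, since most of the genes were chosen by their difference under the deficient label, while Plin2 lies near the line at 0.35 and 0.47.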

How the data were processed

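RNA of the macrophages was biotin-labelled and put on single-colour Illumina arrays (per the labels). For each probe and array the deposited table has a mean bead intensity with no background or between-array correction, and a detection p-value, per the file headers. The submitters' processing notes name GenomeStudio, with no version. The authors' series-matrix values, used as an alternative, are deposited as linear intensities with a background subtracted, and their exact normalization is unknown.

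From these, limma 3.58.1 in R 4.3.3 (neqc, offset 16, quantiles, log2) gave the values. A probe was kept with a detection p under 0.01 on at least 4 of 16 arrays, which left 10224 of 25697 probes. The probe detected on most arrays, then the brightest, stood for its gene: 7082 named genes and 565 unnamed probes. Gene names come from the platform annotation, with 23978 probes named and 1719 not. The fit over 16 arrays held each pair (genotype label and number) as a block and an agLDL term per genotype label, with 6 residual degrees of freedom, eBayes and Benjamini-Hochberg adjustment at 0.05. The pairing comes from the labels, by which both arrays of a pair are of the same mouse. Same-numbered arrays deviated together from their group means (correlations of 0.468 to 0.831 over 24 couples), so the number shared between labels was a second block.

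The genes named are the 12 with the smallest p on each side among those of 1 sign in all 4 pairs and detected on at least 2 arrays of each group, 4 a side with a bound, 22 set genes where measured, up to 3 a list, 5 a side for the difference between labels, and any gene called. Tfeb, Stat2, Dhx58, Atf3, Atf5, Sesn2, Cetn3, Ndufb3, Mylip, Nfkbib, Tfb1m and the markers were named outside it, after their values were seen. The comparison, the rule and the lists were chosen with earlier results of these data known. Over 12 simulations of 7647 genes, the test for the deficient label recovered 22 to 34 of 50 genes changed by 0.5 (log2), 40 to 50 of 50 by 1, 49 to 50 of 50 by 2 and 50 of 50 by 3, with 5 to 16 false calls. The simulated noise was normal and independent between arrays, with no array standing apart and no response shared within a mouse. All sizes were changed in the same run, which eases the adjusted threshold. These counts therefore do not give the power of the test on the real arrays. Promoters are RefSeq's, on GRCm38.p6.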

Additional observations from a re-analysis of the deposited data

Results flagged for a closer look

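For 4 named genes the difference with agLDL had 1 sign in all 4 pairs of the Ndst1-deficient label and the other sign in all 4 pairs of the wild-type label, as it did for 33 of 7647 genes. The deficient minus wild-type difference (log2) was 0.58 for Cul4a, 0.48 for Nfkbiz, -0.56 for Bin3 and -0.61 for Ppp1r15b, which encodes a subunit that brings a phosphatase to eIF2 alpha. None passed the test of that difference (limma adjusted p of 0.825 for Cul4a and 0.934 for the other 3), and 3 of the 4 were named for their difference in these arrays.

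In 9 of 200 groups of 4 arrays, 1 array lay far from the other 3 by Dixon's criterion, and chance gives about 1 in 20. With agLDL these were array 1.1 for Ccp110 (6.41), Lyz2 (15.25) and Stard3 (8.60), array 1.2 for Nusap1 (7.16) and Ppp1r15b (6.77), and array 2.1 for Dstyk (6.89) and Pcnx (6.71). Among untreated arrays they were 1.1 for Sdc4 (10.09) and 2.2 for Ninl (6.35).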

How the results depend on the processing

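With each pair as a block 0 genes were called. With no replicate block on the 16 arrays 1 gene was called and with the replicate block of the number shared between genotype labels 1 gene, each time Ssbp1 (limma adjusted p = 0.035 and 0.021), and without background correction 2 genes, Ssbp1 and Cul4a (0.033 for both). The other 20 alternatives called 0 genes for agLDL, with lowest adjusted p from 0.052 to 1, and 0 were called for the difference between labels under any that gave it. As an alternative chosen after seeing the data, the shared number block without each array in turn called 0 genes for 9 arrays and 1 to 4 for the other 7, Ssbp1 in all 7. Ssbp1 differed by 0.76 to 1.31 over all alternatives. Plin2 differed by 0.47 with the pair as a block, and by 0.21 without mouse 1 and 0.73 without mouse 2 of the deficient label. The count of genes at an unadjusted p under 0.05 (707 of 7647) was 309 with no block and 236 with averaged arrays and no block. It was 411 without pair 1.2, 326 without mouse 1 and 1255 without mouse 2. With no filter on detection it was 1338, but of 18312 genes tested. Of 99 genes under 23 alternatives, 90 kept their sign throughout. Alternatives that change only the block, the wild-type arrays, the filter or the probes tested leave each difference as it is, as for Plin2 at 0.47. No sign could change under those, so they do not test it. Lpl, at 0.00, was -0.019 with median centring and -0.093 in the series matrix. Leaving out each pair or mouse in turn, Lpl ranged from -0.013 to 0.015, Cd36 from -0.43 to 0.097, Egr2 from -0.19 to 0.64, Elovl1 from -0.27 to 0.025, Fads1 from -0.043 to 0.24, Lipa from -0.32 to 0.019, Lyz2 from -0.061 to 0.0016, Naglu from -0.078 to 1.12 and Nceh1 from -0.011 to 0.097. The cause was not tested.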
